A study of Mus musculus with 32 samples.

Results

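Immediate early genes are the genes that neurons switch on within minutes of synaptic activity, and 10 of them were followed here in frontal cortex of wild-type (WT) and GFAP-IL6 mice. The genes were Fos, Fosb, Junb, Egr1, Egr2, Egr4, Arc, Npas4, Nr4a1 and Dusp1, taken by symbol as 10 of the 33000 genes in the table of counts. Both groups of mice were C57BL/6 and 3 months old, and the GFAP-IL6 animals were homozygous for a transgene in which the Gfap promoter, active in astrocytes, drives the cytokine IL6. RNA of each genotype was reverse-transcribed at 4 inputs, 50, 10, 1 and 0.5 ng of total RNA, with 4 libraries for each genotype and input, which gave 8 groups and 32 libraries. The libraries were made by 3'Pool-seq, in which an indexed oligo-dT primer marks each sample, samples are pooled after reverse transcription, and reads come from the 3' ends of transcripts. The labels did not say whether libraries with the same replicate number shared an animal or an RNA, so that p-values measure the spread between these libraries, which may be technical in part.

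Calcium entering through synaptic receptors and channels activates kinase cascades that phosphorylate transcription factors already bound at the promoters of these genes, chiefly CREB at cAMP response elements (CRE) and SRF at CArG boxes. Most of the products are transcription factors that act on a later set of genes, whereas Arc acts at the synapse and Dusp1 switches off the kinases that induce it. The transcripts are short-lived, and their level in dissected cortex follows the experience of the animal and its handling shortly before death.

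Promoter windows were read from RefSeq (GRCm38.p6), each of 300 bases with 250 bases before the transcription start, and 8 of the 10 genes had at least 1, all but Arc and Egr1. Egr2 had 5 windows, for different starts, and the window overlapping the most others was used, so its matches hold for that start only. The 5 shown are those of the genes the results below turn on, each 5' to 3' on the strand of the gene, with every CRE half-site (TGACG, or CGTCA for the opposite strand) and CArG box in capitals.
Fos, chr12:85473640-85473939, plus strand: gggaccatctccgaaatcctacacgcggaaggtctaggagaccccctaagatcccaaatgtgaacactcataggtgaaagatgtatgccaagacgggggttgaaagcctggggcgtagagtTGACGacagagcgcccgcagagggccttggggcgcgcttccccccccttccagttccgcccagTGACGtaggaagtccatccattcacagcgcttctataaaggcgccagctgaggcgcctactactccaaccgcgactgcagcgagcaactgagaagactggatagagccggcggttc
Egr2, chr10:67537619-67537918, plus strand: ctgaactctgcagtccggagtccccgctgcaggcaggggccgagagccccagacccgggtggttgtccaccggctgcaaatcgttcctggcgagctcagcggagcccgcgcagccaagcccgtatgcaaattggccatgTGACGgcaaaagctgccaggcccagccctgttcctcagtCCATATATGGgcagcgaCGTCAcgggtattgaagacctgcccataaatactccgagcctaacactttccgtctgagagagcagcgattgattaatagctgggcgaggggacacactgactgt
Egr4, chr6:85513540-85513839, minus strand: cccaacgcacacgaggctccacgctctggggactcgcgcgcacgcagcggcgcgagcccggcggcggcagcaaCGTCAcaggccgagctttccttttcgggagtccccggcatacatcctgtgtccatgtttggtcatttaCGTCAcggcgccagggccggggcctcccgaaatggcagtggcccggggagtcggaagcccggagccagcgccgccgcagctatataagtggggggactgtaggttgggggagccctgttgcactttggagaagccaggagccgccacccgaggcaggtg
Nr4a1, chr15:101266596-101266895, plus strand: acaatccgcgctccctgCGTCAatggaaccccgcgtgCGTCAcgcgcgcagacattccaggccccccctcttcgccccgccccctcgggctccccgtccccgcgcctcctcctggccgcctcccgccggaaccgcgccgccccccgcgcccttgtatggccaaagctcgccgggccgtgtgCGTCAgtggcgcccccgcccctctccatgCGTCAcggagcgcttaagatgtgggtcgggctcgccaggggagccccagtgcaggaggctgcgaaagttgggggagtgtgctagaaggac
Dusp1, chr17:26508423-26508722, minus strand: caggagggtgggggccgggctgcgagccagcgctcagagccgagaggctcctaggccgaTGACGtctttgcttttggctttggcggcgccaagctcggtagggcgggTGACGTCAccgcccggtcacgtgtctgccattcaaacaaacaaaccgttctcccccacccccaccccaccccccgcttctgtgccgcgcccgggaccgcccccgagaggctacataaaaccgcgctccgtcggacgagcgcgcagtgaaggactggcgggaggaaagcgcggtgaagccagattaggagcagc

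The CRE half-site was present in 8 of the 8 windows and in 20.8% of all 32851 RefSeq windows. Nr4a1 held 4 half-sites, all on the opposite strand, and Fos, Egr2 and Egr4 held 2 each. The full palindromic CRE (TGACGTCA), which contains a half-site on each strand, was found only in Dusp1, 143 to 136 bases before the start, and in 1.79% of all windows. The CArG box was found only in Egr2, 72 to 63 bases before the start, and in 1.63% of all windows. The TATA letters TATAAA, searched on the strand of the gene, occurred in Fos and Junb and in 8.32% of all windows. Neither the Egr letters GCGTGGGCG (0.612% of all windows) nor the AP-1 letters TGANTCA (7.81%), searched on both strands, occurred in the 8 windows. These matches describe letters in the windows and are not evidence of binding.

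Total counts per library ran from 1071895 to 7538356 and from 1064514 to 9840302 at the 50 and 10 ng inputs, and from 261378 to 2800270 and from 295022 to 2722389 at the 1 and 0.5 ng inputs. Values are given as CPM, which are counts divided by the total of the library, scaled to the same total in all libraries and not corrected for length, so levels are compared between libraries and not between genes. The smallest level counted as detectable, 3 counts of the total, lay between 0.398 and 2.80 CPM at 50 ng and between 1.102 and 10.2 CPM at 0.5 ng, and it covers counting error only because the reads carried no molecular identifiers. Replicate 2 had the lowest and replicate 4 the highest total in every group. Il6, the gene of the transgene, had 4 to 22 counts in the GFAP-IL6 libraries and 0 to 1 in the WT libraries at 50 ng, and 2 to 41 against 0 to 3 at 10 ng, so that 1 GFAP-IL6 library at 10 ng fell within the WT range. At 1 ng it had 0 to 27 against 0 to 13 counts, and at 0.5 ng it had 0 counts in every library, which checks no label there. Neuronal markers, 8 of 8 tested, summed to 7149 to 8001 CPM in WT and 7187 to 7611 CPM in GFAP-IL6 libraries at 50 ng. Whether a gene is lower because fewer cells of a type were present or because each held less RNA cannot be told apart in bulk tissue.

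The first comparison asked whether the genotype changed the activity genes. None of the 10 genes was called different at any input, but Arc, Nr4a1 and Dusp1 had higher means in GFAP-IL6 libraries, with an unadjusted p under 0.05 (edgeR), at both 50 and 10 ng. Of all genes tested, 5.63% at 50 ng and 7.48% at 10 ng had such a p, and the share with it at both inputs was not computed. The libraries at the 2 inputs may share RNA, so the second result is not independent of the first. Fos and Egr1, the genes most often used as activity markers, had log2 fold changes within 0.10 of 0 at both inputs. Egr2 had a negative log2 fold change at both inputs, without passing the test.

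A call required an adjusted p (Benjamini-Hochberg over all genes tested, edgeR quasi-likelihood test) under 0.05 together with a log2 fold change beyond 1 in either direction. At 50 ng, 0 of 9 tested genes of the group were called, where 0.28% of 11773 genes were. At 10 ng it was 0 of 9, against 0.266% of 12043 genes, and at 1 ng 0 of 7, against 0.0323% of 9276. At 0.5 ng it was 0 of 8, against 0.0117% of 8571. With background shares this low, 0 calls did not set these genes apart from the rest. The unadjusted p was under 0.05 for 3, 3, 0 and 0 of the tested genes at 50, 10, 1 and 0.5 ng, and for 5.63%, 7.48%, 3.59% and 2.87% of all genes. DESeq2, run on all 10, gave an adjusted p under 0.05 for 0 at each input (Npas4 had no adjusted p at 1 ng), and an unadjusted p under 0.05 for 3 at 50 ng, 2 at 10 ng and 0 at 1 and 0.5 ng. The median log2 fold change of the tested members was 0.10, 0.35, 0.64 and 0.08 at the 4 inputs from the highest down, while that of all tested genes was within 0.01 of 0 at each input. Fosb was below the expression filter in each of these 4 comparisons, Npas4 at 1 and 0.5 ng, and Egr2 at 1 ng.

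**Figure D1:**
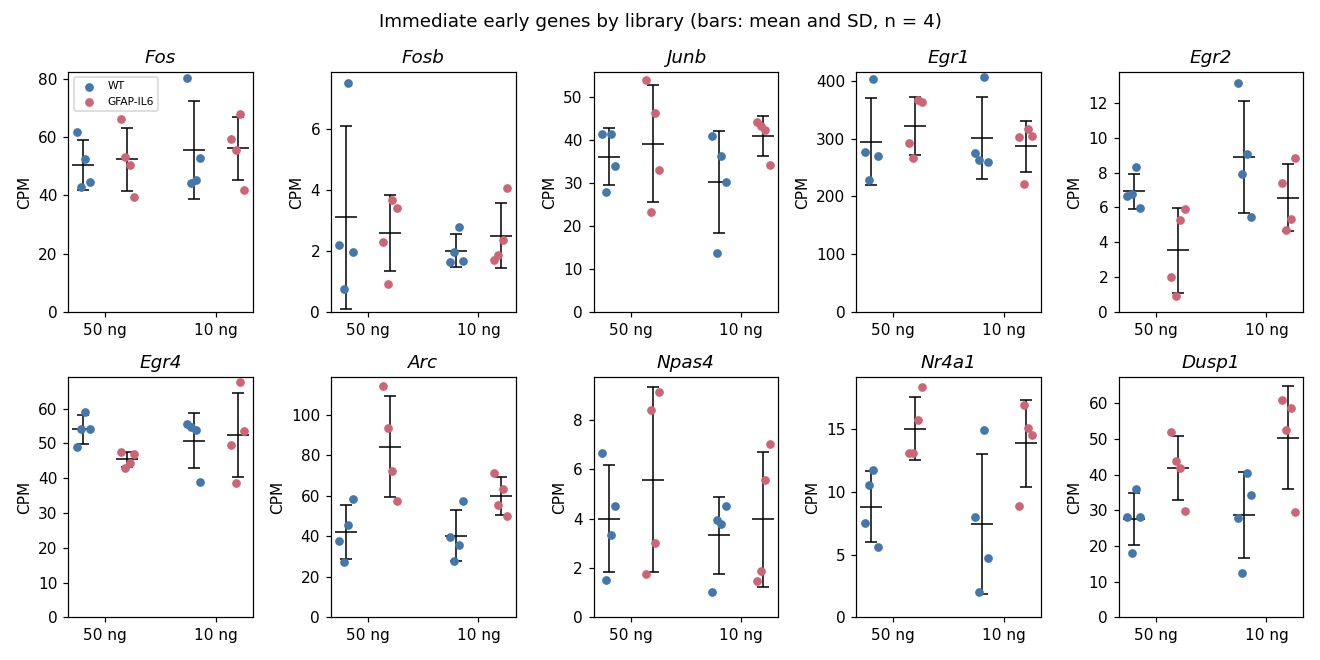
CPM of each of the 10 genes in each library at 50 and 10 ng, WT in blue and GFAP-IL6 in red, with the mean and SD of the 4 libraries of a group. Nr4a1, Egr2 and Egr4 separate the genotypes at 50 ng, and no gene separates them at 10 ng.

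Arc (chr15:74669083-74672570, GRCm38) encodes a synaptic protein that promotes removal of AMPA receptors from the membrane, and it had the smallest p of the group at 50 ng. Its level in the 4 WT libraries at 50 ng was 37.6, 27.1, 45.4 and 58.2 CPM, and in the 4 GFAP-IL6 libraries 114, 93.3, 72.2 and 57.4 CPM. Of the GFAP-IL6 libraries 3 were above every WT library, and replicate 4 of the 2 genotypes met at nearly the same level. The means were 42.1 ± 13.1 (SD, n = 4) and 84.2 ± 24.8 CPM (SD, n = 4). The log2 fold change of Arc was 0.92 ± 0.24 (SE), with an unadjusted p of 0.000755 and an adjusted p of 0.165 by edgeR. By DESeq2 it was 0.94, with an adjusted p of 0.0569. Without replicate 4 of GFAP-IL6, the deepest library of that group and the one lowest in Arc, the log2 fold change was 1.05 and the adjusted p 0.00155 by edgeR, which passed both thresholds. Without a filter on low counts the adjusted p was 0.00157 by edgeR at a log2 fold change of 0.93, which did not pass the fold threshold. Calls over all genes rose from 33 to 59 in the first of these settings and to 80 in the second, so more genes passed in general. At 10 ng the WT libraries had 39.5, 27.7, 35.9 and 57.5 CPM and the GFAP-IL6 libraries 71.1, 55.4, 63.1 and 49.8 CPM. The groups again overlapped at replicate 4 of WT, and the log2 fold change was 0.51 ± 0.21 (SE), with an adjusted p of 0.555 by edgeR. With the counts at 50 and 10 ng summed for each number, the log2 fold change was 0.71 ± 0.19 (SE), and the adjusted p was 0.121 by edgeR. At 1 and 0.5 ng the log2 fold changes were 1.04 ± 0.54 and 0.92 ± 0.79 (SE), with adjusted p of 0.997 and 0.9999 by edgeR.

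Nr4a1 (chr15:101254269-101274795), an orphan nuclear receptor induced by calcium signalling, also had a higher mean in GFAP-IL6 at every input. At 50 ng its level was 7.47, 10.5, 11.7 and 5.57 CPM in WT and 13.0, 13.1, 15.7 and 18.3 CPM in GFAP-IL6 libraries. Every GFAP-IL6 library was above every WT library, as for 1 of the 9 tested members and for 2.17% of all tested genes. The log2 fold change was 0.82 ± 0.29 (SE), with an unadjusted p of 0.00932 and an adjusted p of 0.634 by edgeR. At 10 ng the WT libraries had 8.02, 1.98, 14.9 and 4.75 CPM and the GFAP-IL6 libraries 8.86, 16.9, 15.1 and 14.5 CPM. WT replicate 3 lay within the GFAP-IL6 range, and the log2 fold change of 0.81 ± 0.39 (SE) had an adjusted p of 0.656 by edgeR. At 1 ng every GFAP-IL6 library, between 13.7 and 30.6 CPM, was again above every WT library, between 2.73 and 12.9 CPM, as for 1 of 7 tested members, where 1.68% of all tested genes were wholly above and 1.39% wholly below. The counts behind the 1 ng values were 1 to 16 in WT and 8 to 39 in GFAP-IL6 libraries, and the log2 fold change of 1.18 ± 0.85 (SE) had an adjusted p of 0.997 by edgeR.

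Dusp1 (chr17:26505590-26562128), a phosphatase that inactivates MAP kinases, was the third gene with an unadjusted p under 0.05 at 2 inputs. At 50 ng its level was 28.2, 18.1, 35.9 and 28.0 CPM in WT and 51.8, 43.8, 41.7 and 29.9 CPM in GFAP-IL6 libraries. Replicate 4 of GFAP-IL6 was within the WT range and the other 3 were above it, with a log2 fold change of 0.53 ± 0.22 (SE) and an adjusted p of 0.835 by edgeR. At 10 ng the levels were 27.8, 12.5, 40.4 and 34.2 CPM in WT and 60.8, 52.6, 58.5 and 29.5 CPM in GFAP-IL6. The same GFAP-IL6 number lay within the WT range, and the log2 fold change was 0.72 ± 0.25 (SE), with an adjusted p of 0.419 by edgeR. At 1 and 0.5 ng the log2 fold changes were 0.26 ± 0.48 and -0.12 ± 0.72 (SE). In the annotation used here, by whole gene spans with introns, the Dusp1 locus overlaps Ergic1 on the opposite strand and 3 further entries. Junb overlaps Prdx2 on the opposite strand. The authors counted with another release of the annotation, and whether the counted exons overlap was not examined. Whether counting used the strand was not stated, so reads of these pairs may not be separated.

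Egr2 and Egr4 are zinc-finger transcription factors of the Egr family, and both lay lower in GFAP-IL6 libraries at 50 ng. Egr2 (chr10:67535475-67542188) had 6.64, 6.77, 8.35 and 5.97 CPM in WT and 2.03, 0.933, 5.30 and 5.91 CPM in GFAP-IL6 libraries. Egr4 (chr6:85511121-85513589) had 49.0, 54.2, 59.0 and 54.1 CPM in WT and 47.5, 42.9, 44.3 and 47.0 CPM in GFAP-IL6 libraries. For both genes every GFAP-IL6 library was below every WT library, as for 2 of the 9 tested members and for 1.16% of all tested genes, although the gap for Egr2 was from 5.91 to 5.97 CPM. Egr2 had a log2 fold change of -0.80 ± 0.40 (SE) with an unadjusted p of 0.058 and an adjusted p of 0.835 by edgeR, and rested on 1 to 45 counts per library. Egr4 had a log2 fold change of -0.28 ± 0.17 (SE) with an adjusted p of 0.835 by edgeR. Within each genotype at 50 ng its libraries lay closer together than counting error alone would give. At 10 ng both genes overlapped between genotypes, with log2 fold changes of -0.40 ± 0.40 (SE) for Egr2 and 0.05 ± 0.19 (SE) for Egr4. Of the 9 tested members 0 were wholly above and 0 wholly below WT at 10 ng, against 2.77% and 1.34% of all tested genes.

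Fos, Fosb and Junb encode subunits of the AP-1 transcription factor, and the genotypes overlapped for each of them at both inputs. Fos (chr12:85473890-85477273) had 61.7, 42.9, 52.3 and 44.6 CPM in WT and 66.0, 53.2, 50.5 and 39.4 CPM in GFAP-IL6 libraries at 50 ng. The 2 groups covered almost the same range, and the log2 fold change was 0.01 ± 0.20 (SE) at 50 ng and -0.04 ± 0.20 (SE) at 10 ng, with adjusted p of 0.997 and 0.972 by edgeR. Junb (chr8:84974484-84978718) ranged from 27.8 to 41.5 CPM in WT and from 23.3 to 53.9 CPM in GFAP-IL6 libraries at 50 ng, with a log2 fold change of 0.10 ± 0.23 (SE) there and 0.36 ± 0.23 (SE) at 10 ng. Fosb (chr7:19302696-19310051), whose product is known for accumulating with repeated stimulation, had 0.752 to 7.51 CPM in WT and 0.933 to 3.69 CPM in GFAP-IL6 libraries at 50 ng. These were 1 to 27 counts per library, too few for the filter. In the fits without that filter Fosb had a log2 fold change of -0.21 at 50 ng (adjusted p = 0.930 by edgeR without the filter) and of -0.23 by DESeq2 (adjusted p = 0.981).

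Egr1 (chr18:34859823-34864984), an activity marker also known as a plasticity gene, had 276, 229, 404 and 270 CPM in WT and 293, 266, 366 and 363 CPM in GFAP-IL6 libraries at 50 ng. The highest and the lowest library were both WT, and the log2 fold change was 0.10 ± 0.18 (SE) at 50 ng and -0.09 ± 0.14 (SE) at 10 ng. Npas4 (chr19:4984355-4990316), a transcription factor induced selectively by calcium in neurons, had 6.64, 1.504, 3.34 and 4.51 CPM in WT and 1.74, 8.40, 3.00 and 9.14 CPM in GFAP-IL6 libraries at 50 ng. The groups overlapped, and the log2 fold change was 0.27 ± 0.48 (SE) at 50 ng and 0.35 ± 0.59 (SE) at 10 ng. At 0.5 ng the 4 WT libraries held 6 Npas4 counts in all and the 4 GFAP-IL6 libraries 72, from 1 to 35 per library, and the groups overlapped. Npas4 was below the edgeR filter there, and its adjusted p was 0.909 by DESeq2 and 0.820 by edgeR without the filter.

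**Figure D2:**
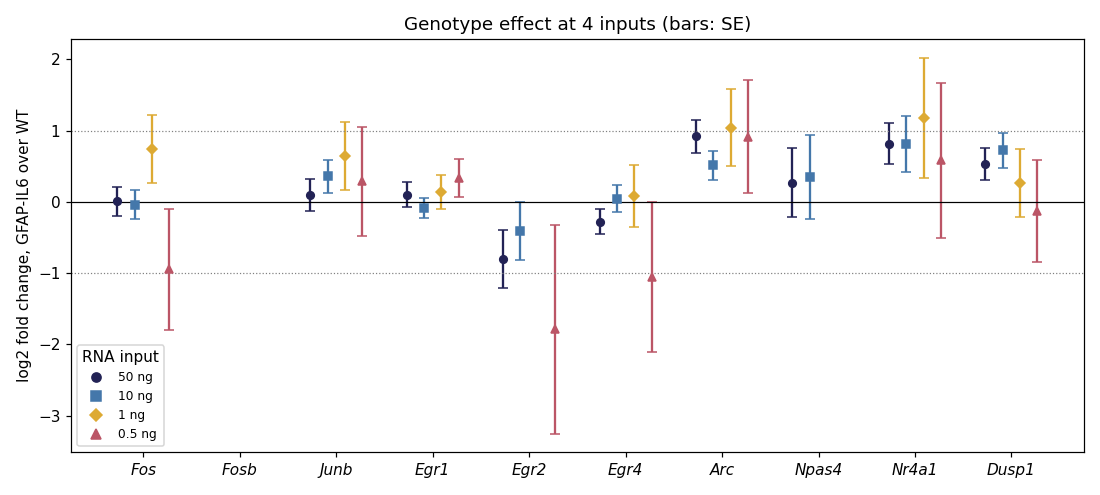
Log2 fold change of GFAP-IL6 over WT for each gene at the 4 inputs, with SE from edgeR, and dotted lines at the fold threshold of 1. Arc and Nr4a1 lie above 0 at all 4 inputs with bars that widen at 1 and 0.5 ng, Fos and Egr1 lie near 0 at 50 and 10 ng, and a gene below the filter has no point.

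The genotype effect was then compared between inputs. The difference between the effect at 10 ng and that at 50 ng passed an adjusted p of 0.05 for 0 of 10 members and for 0% of 12599 genes (edgeR). For 1 against 50 ng it was 0 of 9 and 0% of 11290 genes, and for 0.5 against 50 ng 0 of 9 and 0% of 11406 genes. The unadjusted p was under 0.05 for 0 members in each of the 3 comparisons, by edgeR and by DESeq2, and for 174, 471 and 758 of all genes by edgeR. For Arc the log2 fold change differed by -0.42 ± 0.33 (SE) between 10 and 50 ng, for Dusp1 by 0.18 ± 0.36 and for Nr4a1 by -0.02 ± 0.50, so that for each gene both an equal and a different effect lay within the error.

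Markers of other cell types were summed in the same libraries, and only microglial and macrophage markers held calls (2 genes at 50 ng, where 0.28% of all genes tested were called). These markers, 8 of 8 tested and the 2 called being higher, summed to 453 to 513 CPM in WT and 601 to 1358 CPM in GFAP-IL6 libraries at 50 ng. Endothelial and mural markers, 5 of 6 tested with 0 called, summed to 147 to 171 against 223 to 273 CPM. Of these markers 3 had an unadjusted p under 0.05 (edgeR), as did 5.63% of all genes tested. Striatal markers, 6 of 8 tested with 0 called, summed to 276 to 459 CPM in WT and 181 to 317 CPM in GFAP-IL6 libraries, with Drd2 at 0 in 8 of 8 libraries and Adora2a at 0 in 6 of 8. Choroid plexus markers, 2 of 4 tested with 0 called, summed to 59.8 to 3404 against 66.1 to 348 CPM. Astrocyte markers summed to 2806 to 3346 against 3065 to 4094 CPM, and oligodendrocyte markers to 5254 to 7166 against 3546 to 7414 CPM. Immediate early genes are also induced in glia and vessels, and the part of these cells in the levels of Arc, Nr4a1, Dusp1, Egr2 and Egr4 was not tested.

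Other genes of the pathway, listed by role, showed 0 calls at 50 and 10 ng in all 5 lists (edgeR). Of all genes tested 0.28% and 0.266% were called, so 0 calls did not set the lists apart from the rest. An unadjusted p under 0.05 (edgeR) was held by 5.63% of all genes tested at 50 ng and by 7.48% at 10 ng. Of the other AP-1 family genes 4 of 7 were tested, with a median log2 fold change of 0.18 at 50 ng and 0.00 at 10 ng, and Fosl1, Atf3 and Maff had a mean below 1 CPM. Jun, the main partner of Fos, had 24.7 ± 2.67 CPM in WT and 27.6 ± 4.21 CPM in GFAP-IL6 libraries (SD, n = 4 each) at 50 ng. Jun was at an unadjusted p of 0.0353 at 10 ng with a log2 fold change of -0.57 and an adjusted p of 0.633, opposite in sign to its 0.13 at 50 ng (edgeR). Of the other Egr and Nr4a genes and their co-repressors 4 of 5 were tested, with medians of 0.07 and 0.12 and 0 at an unadjusted p under 0.05, and Egr3 had 0 counts in 4 of the 8 libraries at 50 ng. Nr4a2, a relative of Nr4a1, had log2 fold changes of -0.07 ± 0.27 and 0.04 ± 0.29 (SE) at 50 and 10 ng, and Nr4a3 0.22 ± 0.28 and 0.19 ± 0.29 (SE).

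Of 23 other rapid immediate early genes 20 were tested at 50 ng and 21 at 10 ng, with medians of 0.16 and 0.09. An unadjusted p under 0.05 (edgeR) was found for 1 and 2 of these genes, against 5.63% and 7.48% of all genes tested. In this list Plk2, a kinase that weakens active synapses, had 226 ± 45.8 CPM in WT and 206 ± 59.9 CPM in GFAP-IL6 libraries at 50 ng (SD, n = 4 each). Ier5 and Klf6 had log2 fold changes of -0.13 ± 0.17 and -0.03 ± 0.17 (SE) at 50 ng. The 13 delayed activity-regulated effector genes had medians of -0.02 and 0.02, and summed to 1800 to 1970 CPM in WT and 1731 to 1875 CPM in GFAP-IL6 libraries at 50 ng. Homer1, a postsynaptic scaffold gene of that list, had 219 ± 29.4 and 251 ± 84.3 CPM (SD, n = 4 each), Rgs4 had 563 ± 57.5 and 508 ± 14.5 CPM, and Nrn1 470 ± 44.2 and 390 ± 53.6 CPM. The 17 upstream calcium, MAP kinase and transcription factor genes had medians of 0.05 and -0.02, with Mef2c, a neuronal transcription factor, at log2 fold changes of -0.08 ± 0.15 and -0.01 ± 0.12 (SE). The difference between Arc, Nr4a1 or Dusp1 and these lists was not tested.

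The second question was whether a level of a gene in a library at 50 ng returned in the library of the same genotype and number at 10 ng. Over the 8 number-matched pairs, log2(CPM + 1) of Dusp1 gave a Pearson's r of 0.972 (exact permutation p = 0.000372, adjusted p = 0.0415) and a Spearman's rho of 0.905 (exact permutation p = 0.00456). It was the only member of 9 tested past an adjusted p of 0.05, which 1.45% of 11611 genes passed. Without the 2 pairs farthest from the median at 50 ng, r was 0.939. Within genotype, with each genotype centred on its own mean, r was 0.955 (exact permutation p = 0.00868, adjusted p = 0.201), where 0 of 11611 genes passed and 1815 had an unadjusted p under 0.05, the smallest p that this test can give being 0.00174. With libraries thinned to the lowest total, r was 0.889 and the adjusted p 0.139.

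Arc followed with an r of 0.921 (exact permutation p = 0.00129, adjusted p = 0.0583), a rho of 0.905 (exact permutation p = 0.00456), an r of 0.789 without the 2 farthest pairs and of 0.832 within genotype. Egr1 had an r of 0.824 (exact permutation p = 0.00866, adjusted p = 0.106), a rho of 0.929 (exact permutation p = 0.00223), 0.603 without the 2 farthest pairs and 0.898 within genotype. Its WT replicate 3 was the highest library at both inputs, with 404 CPM at 50 ng and 406 CPM at 10 ng. Replicate 3 was also the highest GFAP-IL6 library for Egr1, with 366 and 317 CPM, so a high level went with the number in both genotypes. That number had the lowest share of mitochondrial counts of its group, 12.4% and 12.7% at 50 ng and 11.6% and 12.3% at 10 ng in WT and GFAP-IL6. Whether this bears on the r of Egr1 was not tested. Fos had an r of 0.711 (exact permutation p = 0.0493, adjusted p = 0.232), with a rho of 0.762 (exact permutation p = 0.0368) and 0.721 without the 2 farthest pairs, but its r was 0.188 with libraries thinned to the lowest total. Nr4a1, Egr2 and Junb had r of 0.580, 0.552 and 0.451, with adjusted p from 0.363 to 0.529 by exact permutation. These 3 were unstable: thinning gave 0.190 for Nr4a1 and 0.216 for Junb, centring on genotype gave 0.204 for Nr4a1, and leaving out 1 number gave 0.446 to 0.876 for Nr4a1, 0.273 (without replicate 2) to 0.706 for Egr2 and 0.309 to 0.903 (without replicate 2) for Junb. Egr4 and Npas4 had r of -0.02 and 0.01, so that the order of the libraries at 50 ng did not return at 10 ng. For Egr4 this included the separation of the genotypes. The spread of Egr4 within each genotype at 50 ng was below the level that counting error alone would give. Npas4 rested on 2 to 69 counts per library at the 2 inputs. The median r was 0.580 over the 9 members and 0.423 over all genes. Because the labels do not tie equal numbers to the same RNA, a returning level describes these libraries and cannot be assigned to an animal.

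**Figure D3:**
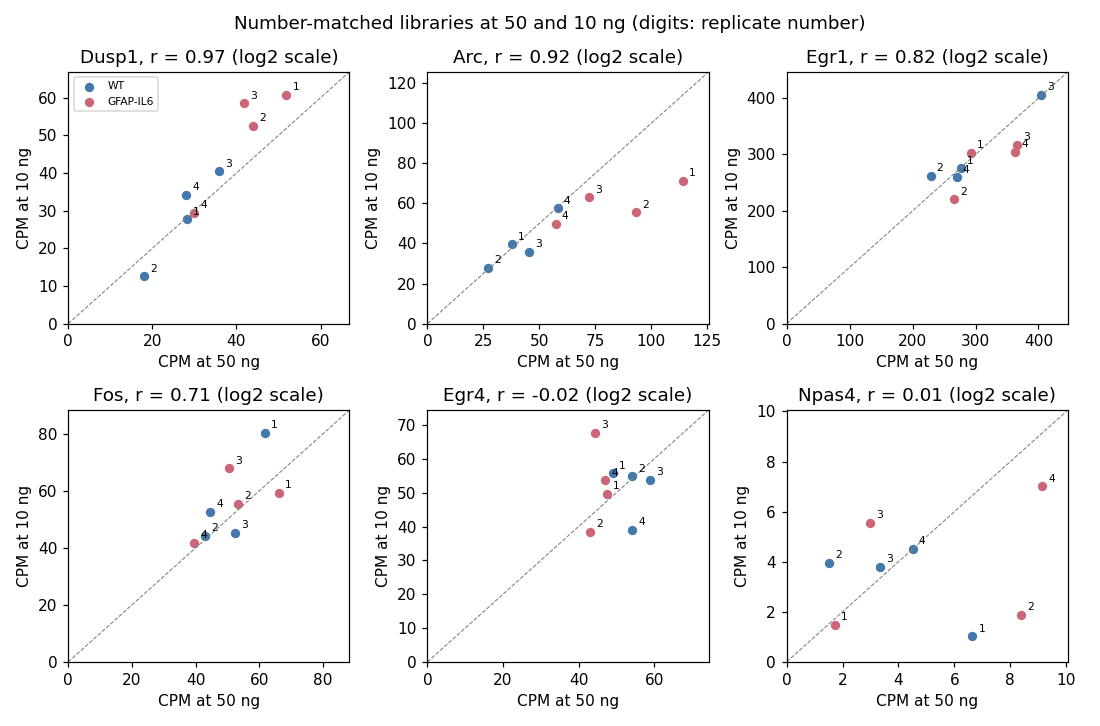
CPM at 10 ng against CPM at 50 ng for 6 genes in the 8 number-matched pairs of libraries, WT in blue and GFAP-IL6 in red, with the replicate number beside each point, the dashed line of equal levels and r of log2(CPM + 1) above each panel. Dusp1, Arc and Egr1 rise from left to right, Fos does so with more scatter, and Egr4 and Npas4 scatter.

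The third question was whether the genes rose and fell together between libraries. Co-variation with Fos over the 8 libraries at 50 ng passed an adjusted p of 0.05 for 0 of 8 members and for 0% of 11610 genes (exact permutation), with an unadjusted p under 0.05 for 0 members and for 1386 genes. The largest r with Fos were those of Dusp1, at 0.610 (exact permutation p = 0.106, adjusted p = 0.471, rho 0.619 with exact permutation p = 0.115, r without the 2 farthest libraries 0.485), and Junb, at 0.556 (exact permutation p = 0.154, adjusted p = 0.507, rho 0.524 with exact permutation p = 0.197, r without the 2 farthest 0.346). The r of Junb with Fos was 0.130 without replicate 1 and 0.849 without replicate 2. Arc had an r of 0.408, Egr1 -0.03, Nr4a1 -0.12, Npas4 -0.19, Egr4 -0.20 and Egr2 -0.40, with adjusted p from 0.627 to 0.975 by exact permutation. The median over the 8 genes was -0.08, beside 0.02 over all genes, and at 10 ng it was 0.17.

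Over all 36 pairs of the 9 tested members the median r was 0.08 at 50 ng and 0.16 at 10 ng, against 0.02 and 0.03 over all pairs of genes. After centring on genotype it was 0.13 and 0.20, against 0.02 and 0.03. The sign of a pair was above 0 at both inputs for 16 of the 36 centred pairs, below 0 at both for 10 and opposite for 10. Only 5 centred pairs had r above 0.5 at both inputs. Arc and Dusp1 had 0.825 at 50 ng and 0.718 at 10 ng, Fos and Junb 0.552 and 0.594, and Junb and Dusp1 0.529 and 0.847. Egr1 had 0.519 and 0.601 with Egr4, and 0.502 and 0.502 with Nr4a1. Before centring, 2 pairs were above 0.5 at both inputs, Arc with Dusp1 at 0.911 and 0.840, and Fos with Junb at 0.556 and 0.536. Arc and Nr4a1, both higher in the mean of GFAP-IL6, had an r of -0.68 after centring at 50 ng and 0.07 at 10 ng. These r are descriptions over 8 libraries that share preparation and depth, and the libraries at the 2 inputs may share RNA, so the second set is not independent of the first.

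**Figure D4:**
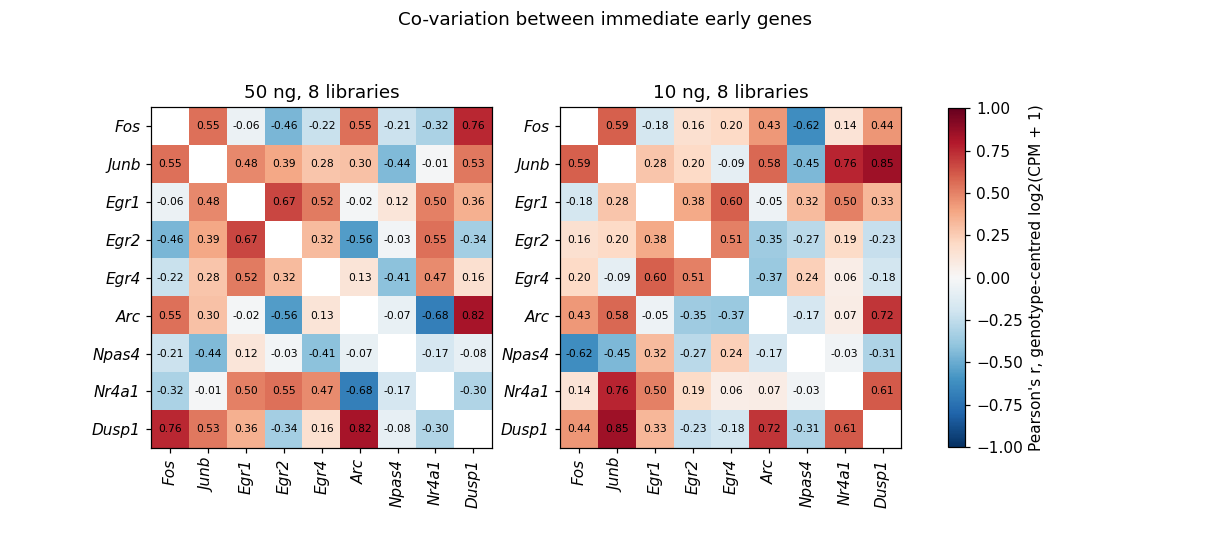
Pearson's r of genotype-centred log2(CPM + 1) for each pair of the 9 tested genes over the 8 libraries at 50 ng (left) and at 10 ng (right), red for positive and blue for negative values. Arc with Dusp1, Fos with Junb, Junb with Dusp1, and Egr1 with Egr4 and with Nr4a1 are above 0.5 in both panels, and 10 of the 36 pairs change sign between them.

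Genes outside the group were ranked by mean r with the members at 50 ng, on values centred on genotype. The 5 highest were Taf5, a subunit of the general factor TFIID, at 0.444, Nup62, a nuclear pore gene, at 0.444, Irf2bp1 at 0.441, Cdk5rap2 at 0.440 and Gm15446 at 0.440, over 8 libraries. They were picked as the top of 11611 genes, and how high such a top value lies without any relation was not computed. At 10 ng their ranks among 11611 genes were 702, 6358, 6421, 7276 and 6028, so that 4 of the 5 did not keep a place near the top.

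The last comparison was between inputs. At 10 against 50 ng, 0 of 10 members and 0% of 12599 genes were called (edgeR), with 1 member and 549 genes at an unadjusted p under 0.05. At 1 against 50 ng it was 0 of 9 members and 0.257% of 11290 genes, and at 0.5 against 50 ng 0 of 9 members and 0.763% of 11406 genes, with 1 member at an unadjusted p under 0.05 in each (edgeR). That p was under 0.05 for 11.2% and 11.7% of all genes at 1 and 0.5 ng, so that 1 of 9 was near the background. DESeq2 gave 0 members past an adjusted p of 0.05 and 1, 2 and 1 at an unadjusted p under 0.05. Arc was the member under that value at both 1 and 0.5 ng. Its mean over the 8 libraries of an input was 63.2 ± 29.1, 49.999 ± 14.7, 38.7 ± 21.0 and 35.5 ± 24.9 CPM (SD, n = 8 each) from the highest to the lowest input. The log2 fold change against 50 ng was -0.25 ± 0.17, -0.56 ± 0.26 and -0.72 ± 0.34 (SE) in that order, with adjusted p of 0.9997, 0.409 and 0.414 by edgeR. Egr2 had a positive log2 fold change at each lower input, 0.59 ± 0.28, 0.65 ± 0.55 and 1.37 ± 0.81 (SE), the first at an unadjusted p of 0.0417 and none past the adjusted threshold by edgeR. Egr1 had 308 ± 61.2 CPM at 50 ng and 252 ± 60.2 CPM at 0.5 ng (SD, n = 8 each). Its log2 fold change was -0.25 ± 0.15 (SE).

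The spread between libraries was wider at the lower inputs, for these genes as for all genes. The common biological coefficient of variation of all genes tested for genotype (edgeR) was 0.214, 0.238, 0.519 and 0.767 at 50, 10, 1 and 0.5 ng. For the 10 genes the coefficient of variation of CPM within a group of 4 had a median over the 20 gene and genotype groups of 26.1%, 28.7%, 51.4% and 65.4% at the 50, 10, 1 and 0.5 ng inputs. Counting error alone, from the counts in each group, would give medians of 10.03%, 9.74%, 18.5% and 19.2%. Egr1 kept a spread of 14.4% to 46.9% over all 8 groups, whereas Egr4 went from 7.56% and 4.81% at 50 ng to 119% and 95.7% at 0.5 ng in WT and GFAP-IL6. Counting error alone would give Egr4 8.16% and 9.42% at 50 ng, so its spread there was below that level in both genotypes. Egr4 at 0.5 ng read 137, 0, 3.86 and 79.8 CPM in the 4 WT libraries, from 165, 0, 5 and 210 counts. Egr2 at 0.5 ng read 39.9, 30.3, 12.3 and 8.74 CPM in WT and 24.4, 0, 0 and 0.367 CPM in GFAP-IL6 libraries, so that 1 GFAP-IL6 library stood inside the WT range and 3 below it. No member had 0 counts in any library at 50 or 10 ng, but 6 values were 0 at 1 ng and 9 at 0.5 ng, 4 of the former in Npas4. By counting error alone, a value of 0 in the shallowest library allows a level of up to 11.5 CPM at 1 ng and 10.2 CPM at 0.5 ng. Levels such as those of Fosb, Npas4 and Egr2 at 50 ng could thus not be told from 0 in that library. Values of 0 also occurred for genes with higher levels elsewhere. Fos read 0 in GFAP-IL6 replicate 2 at 0.5 ng, and that number had 53.2, 55.4 and 57.4 CPM at 50, 10 and 1 ng. Whether these libraries shared RNA is not known, so a 0 at 0.5 ng was not taken as a firm upper limit on a level.

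**Figure D5:**
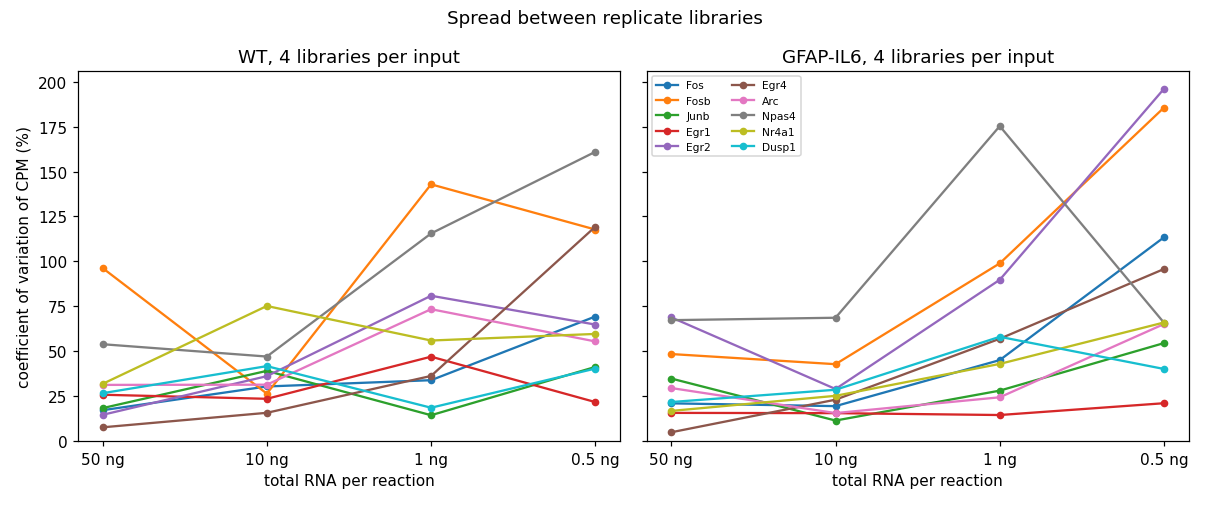
Coefficient of variation of CPM (%) over the 4 libraries of each group against input, one line per gene, WT on the left and GFAP-IL6 on the right. Most lines climb from 50 ng to 0.5 ng, and Egr1 lies between 14.4% and 46.9% in every group.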

How the data were processed

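Frontal cortex RNA was measured by 3'Pool-seq in 32 libraries. The authors removed poly(A) runs from the reads, mapped them to mm10 with STAR 2.4 and assigned them to GENCODE genes with featureCounts, and the deposited values are whole-number counts of 33000 genes, not normalized. Groups were taken from genotype and input in the labels. Here CPM were computed from the counts, and differences were tested with edgeR 4.0.16 in R 4.3.3 (TMM normalization, filterByExpr, quasi-likelihood test), per input for genotype, and for the 16 libraries of a pair of inputs for input effects and their interaction with genotype. SE were worked out from the F statistic. DESeq2 1.42.0, the tool of the authors, was an alternative. The edgeR step was tested on simulated data. Correlations used log2(CPM + 1), a pseudocount of 1, with two-sided exact permutation p over all 40320 pairings of 8 libraries (576 within genotype) and Benjamini-Hochberg adjustment over all genes. Replicate libraries differed by more than counting noise in 48 of 48 pairs (lowest chi-square per degree of freedom 2.37). Coordinates and overlaps are from GENCODE on GRCm38, which is the same build, in another release than the one the authors counted with. Low totals limit the precision as given beside the values. Python 3.11.15, numpy 2.4.6, pandas 2.3.3, scipy 1.17.1 and matplotlib 3.10.9 were used. Besides the 10 genes, the text names any gene of the pathway lists called at 50 or 10 ng, otherwise the 3 of each list with the highest mean CPM at 50 ng, and the 5 other genes most like the group. Fosl1, Atf3, Maff, Egr3, Drd2 and Adora2a are named for their low counts, chosen after their values were seen. The members and lists were chosen with earlier results of these data known.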

Additional observations from a re-analysis of the deposited data

Results flagged for a closer look

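In 80 groups of 4 libraries, 10 genes in each of 8 groups, 8 had a library whose gap to the nearest of the others was past the critical value of Dixon's test, which chance passes in about 1 group of 20. The cause of these gaps was not tested. Egr1 had 406 CPM in WT replicate 3 at 10 ng, where the next library had 276 CPM, and the same number was the highest at 50 ng. Egr1 was lowest in GFAP-IL6 replicate 2 at 10 ng, at 221 CPM with the next at 303, and in GFAP-IL6 replicate 1 at 0.5 ng, at 195 CPM with the next at 305. Egr4 was lowest in WT replicate 4 at 10 ng, at 39.0 CPM with the next at 53.8. Egr2 was highest in GFAP-IL6 replicate 1 at 0.5 ng, at 24.4 CPM with the next at 0.367. Npas4 was highest in GFAP-IL6 replicate 4 at 1 ng, at 15.7 CPM with the next at 1.67. Fosb was highest in WT replicate 2 at 1 ng, at 21.8 CPM with the next at 4.02, and in GFAP-IL6 replicate 2 at 0.5 ng, at 44.1 CPM with the next at 2.57, values that rested on 8 and 13 counts.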

How the results depend on the processing

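Among the alternatives, calls of the 10 genes changed in 2 comparisons. At 50 ng, leaving out 1 library gave 0 to 1 called genes, the 1 being Arc without GFAP-IL6 replicate 4, and 1 gene, Arc again, had an adjusted p under 0.05 at any fold without a filter on low counts (0 to 1 when leaving out a library, with log2 fold changes of Arc from 0.71 to 1.14). For the return of a level between 50 and 10 ng, 1 gene, Dusp1, passed, and 0 passed after centring on genotype (r 0.955, adjusted p 0.201), after thinning (r 0.889, adjusted p 0.139) and without any 1 replicate number (0 to 0, r from 0.939 to 0.986), where the 720 pairings of 6 libraries allow no p under 0.00139. With DESeq2, DESeq2 size factors, the replicate block or thinning, 0 members were called in every genotype and input comparison.

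Small effects changed sign. At 50 ng the log2 fold change of Fos was -0.0117 with the replicate block, -0.0257 thinned and -0.0339 with 50 and 10 ng summed, and that of Egr1 was -0.0204 summed. At 10 ng Fos was 0.18 thinned and Egr4 -0.12 summed. Against 50 ng, at 1 ng Fos was 0.0678 thinned and Npas4 -0.74 with the replicate block. The r between 50 and 10 ng was 0.0615 centred and 0.420 thinned for Egr4, and for Npas4 -0.00881 with a pseudocount of 0.1, -0.00852 centred and -0.23 thinned. The r with Fos was 0.165 for Egr1, 0.264 for Egr2, 0.0782 for Egr4 and 0.394 for Nr4a1 thinned, and at 10 ng 0.116 for Egr2, 0.203 for Egr4 and 0.142 for Nr4a1. Leaving out 1 library or number gave, at 50 ng, -0.15 to 0.15 for Fos, -0.10 to 0.23 for Junb and -0.35 to 0.57 for Npas4, and at 10 ng -0.16 to 0.19 for Fos, -0.15 to 0.0501 for Egr1, -0.0690 to 0.13 for Egr4 and -0.11 to 0.63 for Npas4. Against 50 ng it gave at 1 ng -0.17 to 0.0138 for Junb and -0.0126 to 0.19 for Egr1, and at 0.5 ng -0.35 to 0.0908 for Fos, -0.62 to 1.87 for Egr2 and -0.55 to 0.0815 for Egr4. The r between inputs ran from -0.53 to 0.231 for Egr4 and from -0.45 to 0.281 for Npas4, and the r with Fos from -0.34 to 0.211 for Egr1, -0.60 to 0.253 for Npas4 and -0.18 to 0.0119 for Nr4a1.

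Counts over all genes moved more. Of genotype calls, 33 at 50 ng became 80 without the filter, 17 thinned, 54 summed and 11 to 59 without 1 library (11 to 17 without any 1 but WT replicate 3 and GFAP-IL6 replicate 4, and 59 without the latter), 32 at 10 ng became 19 thinned and 54 summed, 3 at 1 ng became 13 with DESeq2, 9 without the filter, 6 with the block and 5 thinned, and 1 at 0.5 ng became 21 with DESeq2, 4 without the filter and 2 without WT replicate 3 or GFAP-IL6 replicate 4. Of input calls, 0 at 10 against 50 ng became 1 with DESeq2, 1 without the filter, 2 with the block and 2 without replicate 4, 29 at 1 ng became 164 with DESeq2 and 141 without the filter, and 87 at 0.5 ng became 466 with DESeq2, 684 without the filter, 23 thinned, 528 in 1 fit of all 32 libraries and 54 without replicate 1. Differences in genotype effect at 1 and 0.5 ng, 0 each, became 8 and 165 with DESeq2, 2 and 1 without the filter and 1 each without replicate 3 and replicate 4, respectively, and 24 at 0.5 ng in 1 fit of all libraries. Genes passing for the return of a level, 168, became 163 with a pseudocount of 0.1 and 0 centred, thinned or without a number. The causes were not tested.

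Replicate numbers recur in every group. Deviations of equal numbers from their group means correlated at 0.0474 to 0.247 between genotypes at 50 ng. Between 50 and 10 ng they correlated at 0.0966 to 0.280 in WT and 0.0546 to 0.579 in GFAP-IL6. Between genotypes, 4 of 4 libraries fitted best with their own number at 50, 10 and 1 ng, and 1 of 4 at 0.5 ng. Between 50 and 10 ng it was 4 of 4 in WT and 3 of 4 in GFAP-IL6, where replicate 2 (0.0546) did not. Not every pair passed 0.1, and the main edgeR tests did not take the numbers as pairs. The matched r, the summed counts and the replicate block did. The replicate block gave 36 calls in place of 33 at 50 ng and 47 in place of 32 at 10 ng, and 0 of the 10 genes. With it the adjusted p by edgeR at 50 and 10 ng was 0.0854 and 0.244 for Arc. It was 0.423 and 0.369 for Nr4a1, and 0.585 and 0.153 for Dusp1. Depth limits the lower inputs most. The smallest level counted as detectable ran from 1.07 to 11.5 CPM over the libraries at 1 ng. At 0.5 ng it ran from 1.10 to 10.2 CPM.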
